A study of Homo sapiens with 24 samples.

Results

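The comparison asks what APR-246 adds to irradiation in HCT116 colorectal cancer cells when 3 lines are read together. It sets 6 combination libraries against 6 irradiation libraries, which are 12 of the 24 libraries of the series. Each line gives 2 libraries a group. The lines are labelled by their p53 as wild type (WT), as mutant (Mutant, named R248 in the deposited column headers) and as null (Null). The irradiation group received 6 Gy. The combination group was treated with 20 uM APR-246 ahead of the same 6 Gy. Both were kept in McCoy 5A with 10% FBS and harvested 72 hours past irradiation, so the drug is the labelled difference between them. The series also holds libraries of solvent and of APR-246 alone, which are used here only to set the drug's effect without irradiation beside its effect on top of it. Each p53 status is 1 line, so p53 status and line cannot be told apart, and the labels do not say whether replicates were separate cultures. All p-values therefore measure only the spread between these samples. A total of 19613 genes were tested, and 6359 of them (32.4%) had log2 differences of the same sign in WT, Mutant and Null, 3267 higher and 3092 lower with the drug.

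APR-246 is a prodrug that turns into a reactive compound binding cysteine thiols. It was developed to refold mutant p53, and it also binds glutathione and the thioredoxin system, so thiol depletion, the NRF2 antioxidant response and the ATF4 stress response are known parts of its action. Ionizing radiation breaks DNA, and in cells with working p53 it switches on arrest and death genes, of which CDKN1A is the best known.

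For the genes named here, adding APR-246 to irradiated cells gave small differences of the same sign in the lines. They were selected for a pooled difference with 1 sign in the lines, so the shared sign is no added support. Sizes were unequal in some, as in NR4A1 with -1.17 in WT, -0.68 in Mutant and -0.36 in Null. The basement membrane gene HSPG2, the membrane proteins SUSD2 and MRC2, the clock regulators PER1 and DBP, and the immediate early genes NR4A1 and FOSB were lower with the drug. The splicing factors SRSF1, SRSF2 and TRA2A and the cold-inducible RNA-binding protein RBM3 were higher. The log2 differences of such genes ran from -1.0 to -0.43 below and from 0.43 to 0.73 above irradiation alone. By limma with line as the only block none passed the test. They passed once the replicate number was added as a block, and also with each library's slope on gene GC content as a covariate. That slope was computed from the same values and was lower with the drug in most pairs. With it 3237 genes (16.5%) passed, so it is no independent support. With the replicate block, none passed without any 1 of 8 of the 12 libraries. In bulk RNA, fewer cells of a kind and less RNA per cell cannot be told apart.

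In the test with line as the only blocking factor, 0 of 19613 genes (0%) were called at a Benjamini-Hochberg adjusted p below 0.05 by limma, and 0 by edgeR on the recovered reads. At an unadjusted p below 0.05 there were 1914 genes, and the smallest adjusted p was 0.252. By DESeq2 the count was 325, 104 higher and 221 lower. Same-numbered replicates moved together across all 6 groups, so the replicate number was added as a second block. With it limma called 113 genes (0.576% of those tested), 20 higher (0.102%) and 93 lower (0.474%), with adjusted p between 0.038 and 0.0489. All 113 had the same sign in the lines and in 6 of 6 same-numbered pairs, against 11.3% of all genes with 1 sign in 6 of 6 pairs. In 85 of them the scaled values of the groups did not overlap within any of the 3 lines, against 3.16% of all genes. The 113 were selected in these same libraries, so both comparisons follow largely from the selection and are no added support.

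The count of 113 rested on single libraries. Without the second Null combination library it was 2990, and without the first Null irradiation library 380. It was 8 without the second WT combination library, 2 without the second WT irradiation library and 0 without any 1 of the other 8. All 113 calls were also lost without the WT or the Mutant line, and with the block set within each line, where limma gave these genes an adjusted p of 0.0981 to 0.112. The log2 values of the 42 genes followed kept their sign in these repeats, but their sizes moved to unequal degrees. With 1 library left out, SHANK1 ran from -1.11 to -0.77, DBP from -1.03 to -0.75 and CHRD from -0.94 to -0.67. HSPG2 kept its call in 4 of the 12 repeats, with differences of -0.87 to -0.77, and SRSF2 in 2 of 12, with 0.46 to 0.55.

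**Figure D1:**
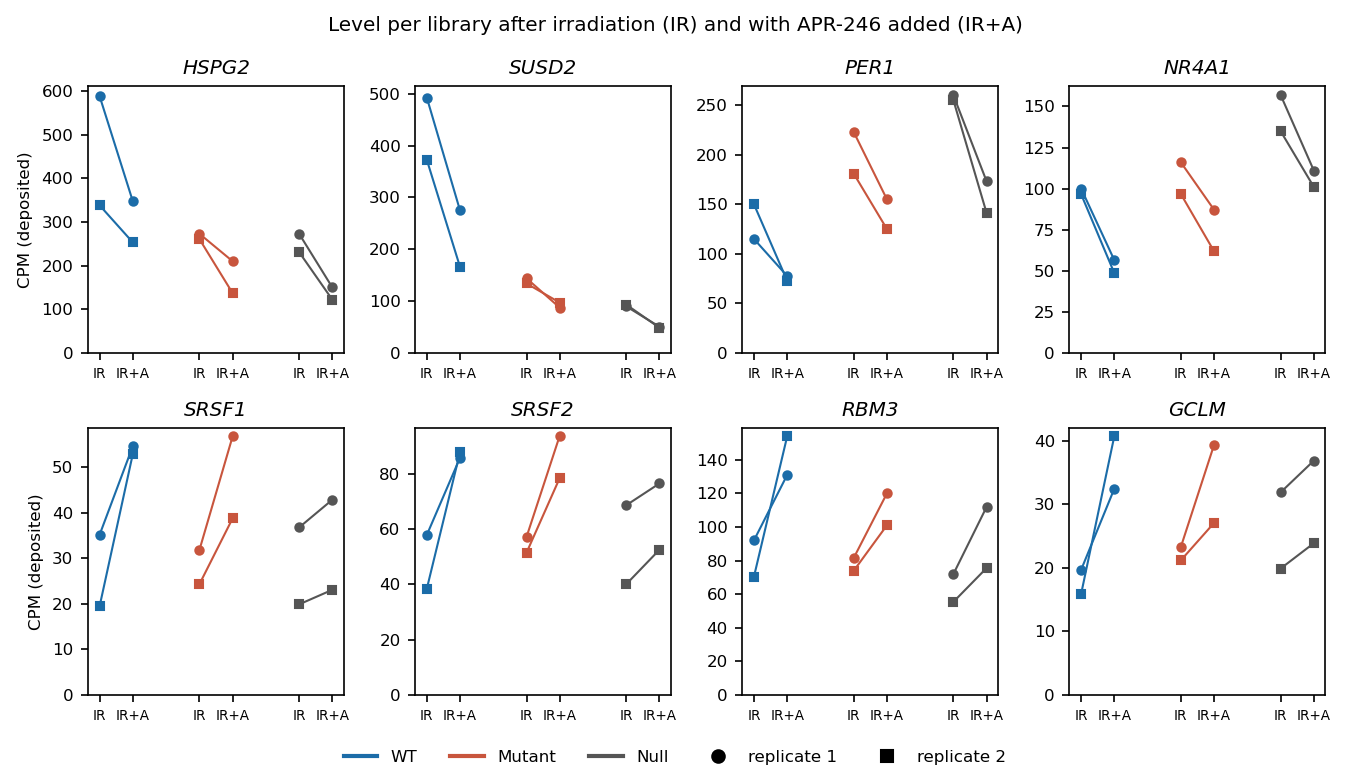
Deposited CPM of 8 genes in each library (vertical axis, starting at 0) after irradiation (IR) and with APR-246 added (IR+A); lines join same-numbered replicates, circles are replicate 1 and squares replicate 2. The upper 4 genes are lower and the lower 4 higher with the drug in every pair, and the distance between replicates is often as large as the step between groups.

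Levels below are deposited CPM, given for replicates 1 and 2 of each group, and differences are log2 of scaled CPM plus 0.5 with the standard error (SE) of the fit with the replicate block. HSPG2 (chromosome 1, 21822245 to 21937297, GRCh38) encodes perlecan, a heparan sulfate proteoglycan of basement membranes. It stood at 588 and 338 CPM in irradiated WT cells and at 347 and 253 with the drug added. In Mutant it went from 273 and 261 to 210 and 137, and in Null from 273 and 231 to 150 and 122. Every pair was lower, by -0.82 ± 0.11 (adjusted p = 0.038 with the block, 0.252 without). After scaling the groups did not overlap within any line, while in WT the deposited CPM did. SUSD2 (chromosome 22, 24181259 to 24189110), a membrane protein of epithelial cells, had its highest level in WT. It measured 493 and 373 CPM against 275 and 166 in WT, 144 and 134 against 87.3 and 97.1 in Mutant, and 89.9 and 93.3 against 50.4 and 48.5 in Null. Its difference was -0.93 ± 0.15 (adjusted p = 0.0395, 0.252 without the block). MRC2, the endocytic collagen receptor also called ENDO180, had 59.1 and 37.1 CPM in irradiated WT cells and 34.5 and 20.7 in the combination. In Mutant it was 113 and 99.7 against 87.1 and 58.0, and in Null 79.1 and 61.4 against 55.0 and 36.2 (-0.77 ± 0.12, adjusted p = 0.038, 0.252 without the block).

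The largest fall by size was in GLIS1, a zinc-finger transcription factor expressed at a few CPM. Its irradiated libraries lay between 2.18 CPM (WT) and 4.67 CPM (Mutant), and its combination libraries between 0.848 CPM (Null) and 2.92 CPM (Mutant). The difference was -1.0 ± 0.15, with -1.02 in WT, -0.99 in Mutant and -1.0 in Null (adjusted p = 0.038, 0.252 without the block). Among secreted proteins, CHRD, the BMP antagonist chordin, FBLN2, the matrix protein fibulin 2, and IGF2, the insulin-like growth factor, had differences of -0.84, -0.91 and -0.82. IGF2 went from 5.59 and 4.06 CPM to 2.06 and 2.67 in Null, where it was highest. SHANK1, a scaffold protein best known from synapses, fell by 0.96, most in WT (18.7 and 8.01 CPM against 8.56 and 2.95). The irradiated WT replicates were themselves far apart.

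PER1 (chromosome 17, 8140472 to 8156506) is a repressor of the circadian clock and an acute target of stress hormones and cyclic AMP. In WT it measured 115 and 150 CPM after irradiation and 77.6 and 72.8 CPM with the drug. Mutant went from 223 and 181 to 155 and 125, and Null from 260 and 255 to 173 and 141. The difference was -0.79 ± 0.14 (adjusted p = 0.0395, 0.26 without the block), with all combination libraries below the irradiation libraries of their line. DBP (chromosome 19, 48630030 to 48637438), an output gene of the clock, stood at 72.1 and 126 CPM against 38.8 and 43.3 in WT, 177 and 171 against 116 and 122 in Mutant, and 177 and 244 against 131 and 120 in Null. That was -0.93 ± 0.17 (adjusted p = 0.0409, 0.306 without the block). BHLHE40, which represses clock genes through the E-box, differed by -0.48 ± 0.10 (adjusted p = 0.0443, 0.418 without the block), and KLF15, a metabolic regulator, by -0.75 (adjusted p = 0.0409). Of the clock activators, BMAL1, partner of CLOCK, was 0.37 ± 0.11 (adjusted p = 0.119 with the block) and higher in 6 of 6 pairs. CLOCK itself was 0.17 ± 0.24 (adjusted p = 0.713), and with the block and the slope of each library on gene GC content it turned to -0.39 (adjusted p = 0.0132). NPAS2, the relative of CLOCK, was -0.28 ± 0.10 (adjusted p = 0.15) and lower in 6 of 6 pairs.

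CLOCK and BMAL1 act through the E-box, so its letters CACGTG, which read alike on both strands, were searched in the 250 bases before the start site. The upstream sequences of 3 of the lower genes that hold it are shown so that its place can be seen. They are from RefSeq (GRCh38.p14), 5′ to 3′ on the minus strand, with the E-box in capitals. Those of PER1 and KLF15 leave off the last 31 and 34 bases before the RefSeq start, where the annotation used here already has an exon. Other annotated transcripts of PER1 begin further upstream, so its stretch lies within the span of the gene given above.
PER1, chr17:8152436-8152654: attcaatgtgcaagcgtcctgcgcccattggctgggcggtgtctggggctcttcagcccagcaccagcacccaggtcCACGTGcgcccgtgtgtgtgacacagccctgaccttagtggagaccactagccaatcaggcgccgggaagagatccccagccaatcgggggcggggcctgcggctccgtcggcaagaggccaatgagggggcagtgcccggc
KLF15, chr3:126357443-126357658: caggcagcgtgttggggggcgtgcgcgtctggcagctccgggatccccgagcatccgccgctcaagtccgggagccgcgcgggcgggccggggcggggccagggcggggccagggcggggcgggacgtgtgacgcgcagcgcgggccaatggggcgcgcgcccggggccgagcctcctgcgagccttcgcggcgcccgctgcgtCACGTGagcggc
PTPRS, chr19:5340813-5341062: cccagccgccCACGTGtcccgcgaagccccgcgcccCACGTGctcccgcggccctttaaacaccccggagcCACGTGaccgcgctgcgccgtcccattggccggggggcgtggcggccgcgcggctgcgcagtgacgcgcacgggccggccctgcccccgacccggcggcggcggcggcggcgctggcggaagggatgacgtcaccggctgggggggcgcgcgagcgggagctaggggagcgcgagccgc
Counted from the RefSeq start, the E-box began 173 bases upstream in PER1 and 46 bases upstream in KLF15, and PTPRS, a receptor phosphatase, holds 3. Of the 93 lower genes 69 were in the promoter table, and 6 of them (8.70%) held the E-box, against 8.56% of the 12728 tested genes in the table and 6.49% of all 27303 promoters there. None of the 13 higher genes in the table did. The antioxidant response element TGACNNNGC, bound by NRF2, was in 13 of the 69 lower genes (18.8%) and in 2 of the 13 higher genes (15.4%), against 12.2% of tested genes. The AP-1 site TGANTCA was in 2 of 69 (2.90%) against 4.26%, and the cyclic AMP response element TGACGTCA in 1 of 69 (1.45%) against 2.71%. The E2F site TTTGGCGC was in 0 of 69 and 0 of 13. All were searched on both strands, and an E-box and an antioxidant response element can share bases. SRSF2 was not in the table.

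Immediate early genes were also among the lower genes. NR4A1 (chromosome 12, 52022832 to 52059507), an orphan nuclear receptor induced within minutes by growth factors and stress, had 100 and 96.6 CPM after irradiation against 56.4 and 48.5 in WT. Mutant went from 116 and 96.7 to 87.1 and 61.8, and Null from 157 and 135 to 111 and 101. The difference was -0.74 ± 0.14 (adjusted p = 0.0409, 0.26 without the block). FOSB, an AP-1 subunit, differed by -0.64 ± 0.13 (adjusted p = 0.0472, 0.26 without the block), most in WT (-0.99) and least in Null (-0.33). PLK3, a stress kinase on the p53 target list, went from 240 and 233 CPM to 179 and 139 in WT and differed by -0.62 ± 0.13 over the lines (adjusted p = 0.0472, 0.274 without the block). Among receptors, FGFR3 differed by -0.53 ± 0.10 (adjusted p = 0.0409), NOTCH3 by -0.72 and the noncanonical WNT ligand WNT11 by -0.73.

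Among the lower genes with the smallest unadjusted p were also ICAM5, an adhesion molecule (-0.75 ± 0.11), TMC4, a membrane channel protein (-0.60 ± 0.09), and BAIAP3, which acts in dense-core vesicle traffic (-0.65 ± 0.10). TMC4 was the most even of them, with -0.59 in WT, -0.61 in Mutant and -0.61 in Null. ICAM5 went from 145 and 128 CPM to 99.1 and 65.4 in Null. HELZ2, a helicase co-activator that interferon can induce, differed by -0.76 ± 0.15, from 269 and 270 CPM to 170 and 186 in Null. PTP4A3, a prenylated phosphatase, and DEPP1, a FOXO target, differed by -0.79 and -0.77, and PTP4A3 lost its call with the block and the GC term together (adjusted p = 0.0631). Of the 113 genes 2 are annotated as antisense, PCAT6 and ENSG00000263325, and as the counting strand is not given their reads cannot be told from those of the opposite gene.

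**Figure D2:**
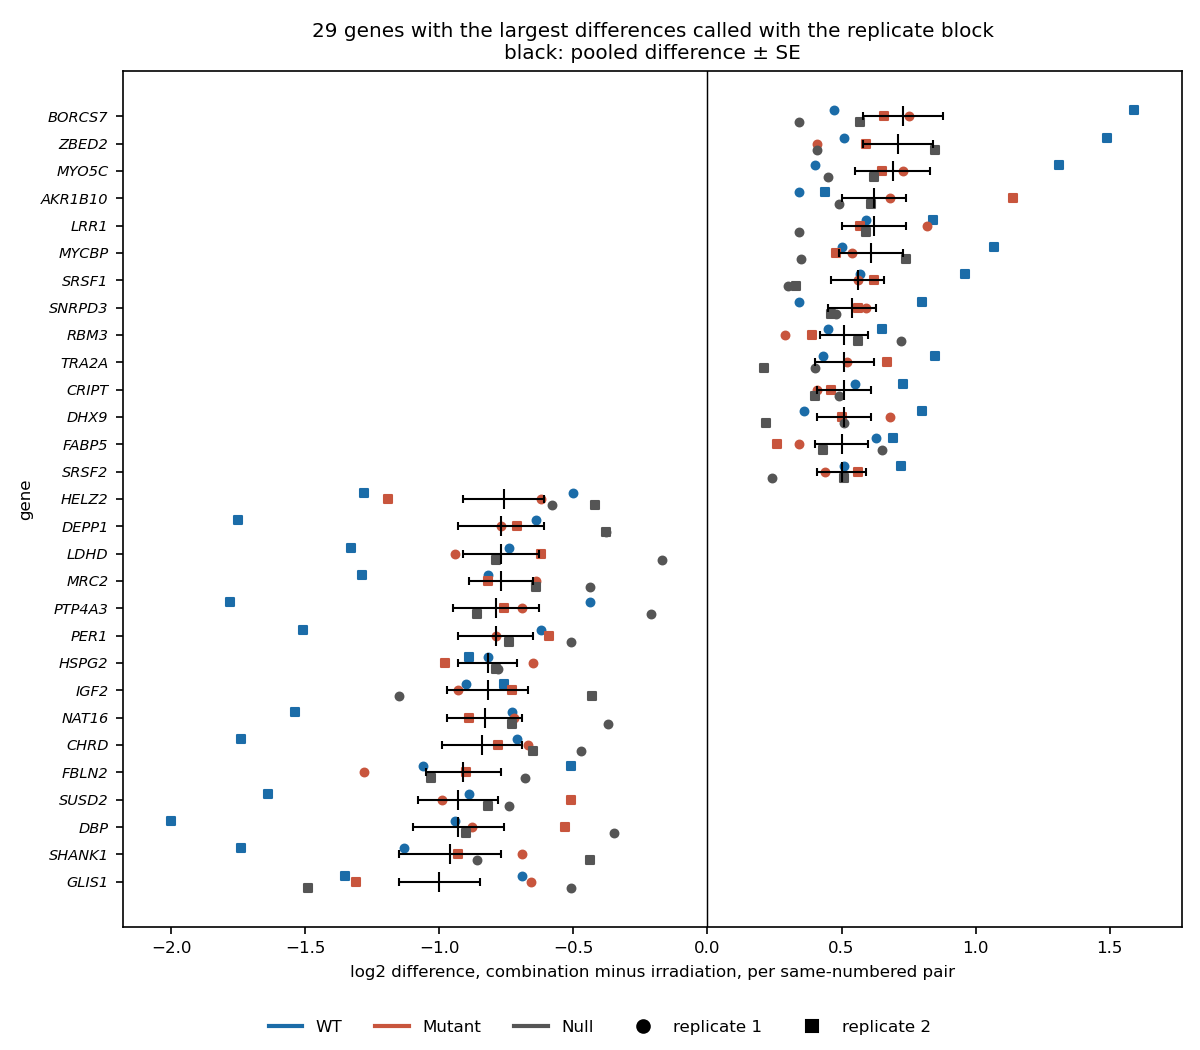
Log2 difference (combination minus irradiation) in each of the 6 same-numbered pairs for 15 of the largest falls and 14 of the largest rises called with the replicate block; the black bar is the pooled difference with its SE. All points of a gene lie on 1 side of 0, and replicate 2 of WT (blue squares) is often the furthest out, for example near -2 for DBP.

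SRSF2, a serine/arginine-rich splicing factor, went from 57.9 and 38.4 CPM to 85.9 and 87.9 in WT, from 57.2 and 51.5 to 93.9 and 78.6 in Mutant, and from 68.7 and 40.1 to 76.6 and 52.6 in Null (0.50 ± 0.09, adjusted p = 0.0409, 0.26 without the block). In Null its deposited CPM overlapped between the groups, and the scaled values did not. SRSF1 of the same family differed by 0.56 ± 0.10, TRA2A, a splicing regulator, by 0.51 ± 0.11, and SNRPD3, a core protein of the spliceosomal particles, by 0.54 ± 0.09. DHX9, an RNA helicase, was 0.51 ± 0.10. RBM3 stood at 92.0 and 70.4 CPM against 131 and 154 in WT, 81.5 and 73.9 against 120 and 101 in Mutant, and 72.0 and 55.4 against 112 and 75.6 in Null. Its difference was 0.51 ± 0.09 (adjusted p = 0.0409, 0.26 without the block).

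The largest rise was that of BORCS7, a subunit of the complex that positions lysosomes, at 0.73 ± 0.15 (adjusted p = 0.0472, 0.26 without the block). It was 1.03 in WT, 0.71 in Mutant and 0.46 in Null, at levels of 1.53 to 12.1 CPM. ZBED2, a transcription factor of keratinocytes and pancreas, went from 20.5 and 11.7 CPM to 30.6 and 46.7 in WT and differed by 0.71 ± 0.13 over the lines (adjusted p = 0.0409). MYO5C, an epithelial myosin motor, was 0.69 ± 0.14, and LRR1, a receptor of the ubiquitin ligase that unloads replication complexes, 0.62 ± 0.12. AKR1B10, an aldo-keto reductase and NRF2 target, differed by 0.62 ± 0.12 (adjusted p = 0.0458, 0.299 without the block). It was low, at 0.791 and 0.884 CPM against 1.20 and 1.85 in WT, 0.0534 and 0.141 against 0.466 and 0.880 in Mutant, and 0.245 and 0.249 against 0.547 and 0.553 in Null. The first of the irradiated Mutant values is at the level that 3 reads give (0.0534 CPM). FABP5, a fatty acid carrier, was 0.50 ± 0.10, and PERP, a p53-inducible desmosome protein, 0.45. CEP19, WARS2-AS1 and PBLD were among the 10 higher genes with the smallest unadjusted p but were not called with the block (adjusted p = 0.0601, 0.0566 and 0.0567), and WARS2-AS1 is antisense to another gene.

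GC content moved with the comparison. The slope of the centred log2 values on gene GC content was computed for each library, as log2 per 10% GC. In WT it was -0.20 and 0.34 after irradiation and -0.53 and -0.28 with the drug added. Mutant had 0.06 and 0.23 against -0.25 and 0.14, and Null -0.15 and 0.32 against -0.22 and 0.52. The slope was lower with the drug in 5 of 6 pairs, and the second Null pair was the exception. The called genes followed the same axis: median GC was 60.5% for the 93 lower genes and 44.6% for the 20 higher genes, against 50% of all genes tested. With the slope as a covariate, limma called 3237 genes (16.5%), 1530 higher and 1707 lower, and with slope and replicate block together 1181 (6.02%), 521 higher and 660 lower. All 113 genes were among the first and 111 among the second. The slope was computed from these same values, so this is no independent support. By the per-line differences fitted without either term, 1688 of the 3237 and 635 of the 1181 had the same sign in the lines.

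**Figure D3:**
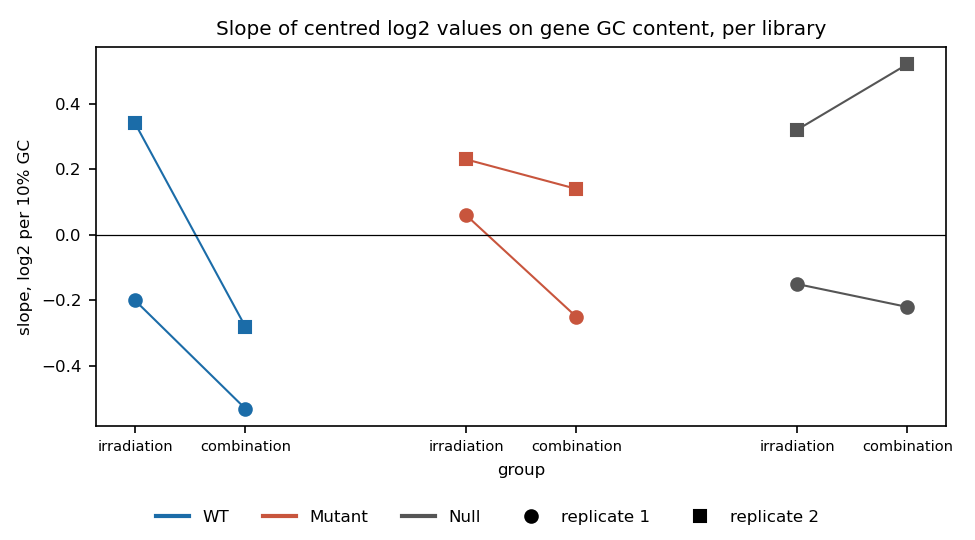
Slope of each library's centred log2 values on gene GC content (log2 per 10% GC); circles are replicate 1, squares replicate 2, and lines join same-numbered libraries of a line. The second replicates lie above the first in all 6 groups, and the step to the combination goes down in 5 of 6 pairs.

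The gene lists were read against these counts. In each sentence below the first count is with the replicate block, the second with the GC slope and the third with both, and no list had a member called without either. DNA replication genes leaned upward: of 41 tested, 33 had a positive difference (80.5%, against 52.9% of all genes), with a median of 0.20 against 0.02 over all genes. They were called higher in 1, 25 and 16 cases and lower in 0, 0 and 0, against 0.102%, 7.80% and 2.66% of all genes called higher. PCNA, the sliding clamp of the replication fork, was 0.37 ± 0.13 (SE without the block) and higher in 6 of 6 pairs, with an adjusted p of 0.106 with the block and 0.0298 with both terms. ORC6 of the origin recognition complex was 0.40 ± 0.13 (adjusted p = 0.079 and 0.0119) and the origin factor GINS3 0.42 ± 0.15 (adjusted p = 0.101 and 0.00872). The list's medians were 0.09 in WT, 0.23 in Mutant and 0.36 in Null. TYMS, thymidylate synthase, had 0.09 in WT and 0.48 in Null (pooled 0.28 ± 0.13, adjusted p = 0.13 and 0.00882). Mitotic genes had 32 of 42 members above 0 (76.2%) and a median of 0.15, which was 0.08 with the slope and 0.08 with both terms. They were called higher in 0, 5 and 1 cases and lower in 0, 1 and 0, and the 1 with both terms (2.38%) is below the share of all genes. Homologous recombination and Fanconi anemia genes had 26 of 31 above 0 (83.9%) and a median of 0.17, which was 0.03 with the slope and 0.06 with both terms. They were called higher in 0, 2 and 1 cases, and the 2 with the slope (6.45%) are a smaller share than that of all genes. RAD51C was 0.45 ± 0.11 and missed the threshold with the block (adjusted p = 0.0587).

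Antioxidant genes under NRF2 are the known answer to thiol-binding drugs. Of 36 tested, 22 were above 0 (61.1%, against 52.9% of all genes) with a median of 0.10. There were 1, 15 and 10 called higher and 0 lower in each fit. The 15 and 10 were 41.7% and 27.8% of the list, against 7.80% and 2.66% of all genes. GCLM (chromosome 1, 93885205 to 93909456), the regulatory subunit of the enzyme that starts glutathione synthesis, had 19.7 and 15.9 CPM against 32.5 and 40.8 in WT. Mutant went from 23.3 and 21.2 to 39.4 and 27.1, and Null from 31.9 and 19.9 to 36.9 and 23.9. Its difference was 0.49 ± 0.11 (adjusted p = 0.0597 with the block and 0.0208 with both terms). NQO1, the quinone reductase, stood at 141 and 159 CPM against 191 and 180 in WT, 257 and 261 against 320 and 351 in Mutant, and 143 and 145 against 189 and 173 in Null. That gave only 0.23 ± 0.11 after scaling (adjusted p = 0.294 with the block), and 0.37 with both terms (adjusted p = 0.0077). HMOX1, heme oxygenase, was 0.13 ± 0.12 (adjusted p = 0.578 and 0.0386), and it was above its irradiated partner in 3 of 6 pairs. SLC7A11, the cystine importer, was 7.30 and 2.22 CPM against 15.6 and 11 in WT, 9.30 and 5.76 against 19.3 and 8.60 in Mutant, and 10.9 and 4.76 against 13.4 and 3.61 in Null. Its 0.67 ± 0.19 was not called (adjusted p = 0.0975 with the block), and its replicates were far apart. TXNRD1, thioredoxin reductase, was 0.33 ± 0.15 (adjusted p = 0.241), and SRXN1, sulfiredoxin, -0.11 ± 0.09 (adjusted p = 0.529).

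Of the protein quality lists, heat shock genes had a median of 0.13 over 21 genes, with 0, 6 and 4 called higher and none lower. The 6 and 4 were 28.6% and 19% of the list, against 7.80% and 2.66% of all genes. HSPE1, the mitochondrial co-chaperonin, was 0.43 ± 0.10 (adjusted p = 0.0567 with the block and 0.0152 with both). Proteasome subunits had 26 of 31 members above 0 and a median of 0.09, with 0, 19 and 1 called higher, so that count depended on the fit. The 19 and 1 were 61.3% and 3.23% of the list, so with both terms the share was near that of all genes. Endoplasmic reticulum chaperones, of which 22 were tested, were called lower in 0, 7 and 4 cases, with a median of -0.02. Over all genes 0.474%, 8.70% and 3.37% were called lower. They were called higher in 0, 2 and 0 cases, and the 2 (9.09%) are near the share of all genes. HSPA5, the chaperone BiP, was -0.15 ± 0.18 (SE without the block; adjusted p = 0.535 with the block and 0.0165 with both). Of the 7 metallothionein and zinc genes tested, 1 was called higher and 1 lower with the slope, against 7.80% and 8.70% of all genes. MT1E, whose reads may be shared with near-identical paralogs, was 0.28 ± 0.10 (adjusted p = 0.173 with the block and 0.0026 with both).

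Immediate stress and AP-1 genes leaned the other way, with 2 of 19 members above 0 and a median of -0.24. They were called lower in 2, 6 and 2 cases and higher in none, against 0.474%, 8.70% and 3.37% of all genes called lower. The 2 with the block were NR4A1 and FOSB. JUNB, another AP-1 subunit, was -0.50 ± 0.19 (SE without the block), below its partner in every pair (adjusted p = 0.108 with the block). The genes of ERK output had a median of -0.17 over 20 genes, with 0, 3 and 3 called lower. DUSP5, a phosphatase that restrains ERK, had 341 and 271 CPM against 316 and 181 in Null and was -0.48 ± 0.12 over the lines (adjusted p = 0.0836 with the block and 0.0332 with both). Antigen presentation genes had the lowest median, -0.31 over 16 genes, with 0, 4 and 0 called lower. That median was -0.40 in WT, -0.34 in Mutant and -0.06 in Null, and -0.06 with the block and the slope together. Cytosolic ribosomal protein genes had a median of -0.14 over 48 genes, and it was 0.01 with both terms.

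**Figure D4:**
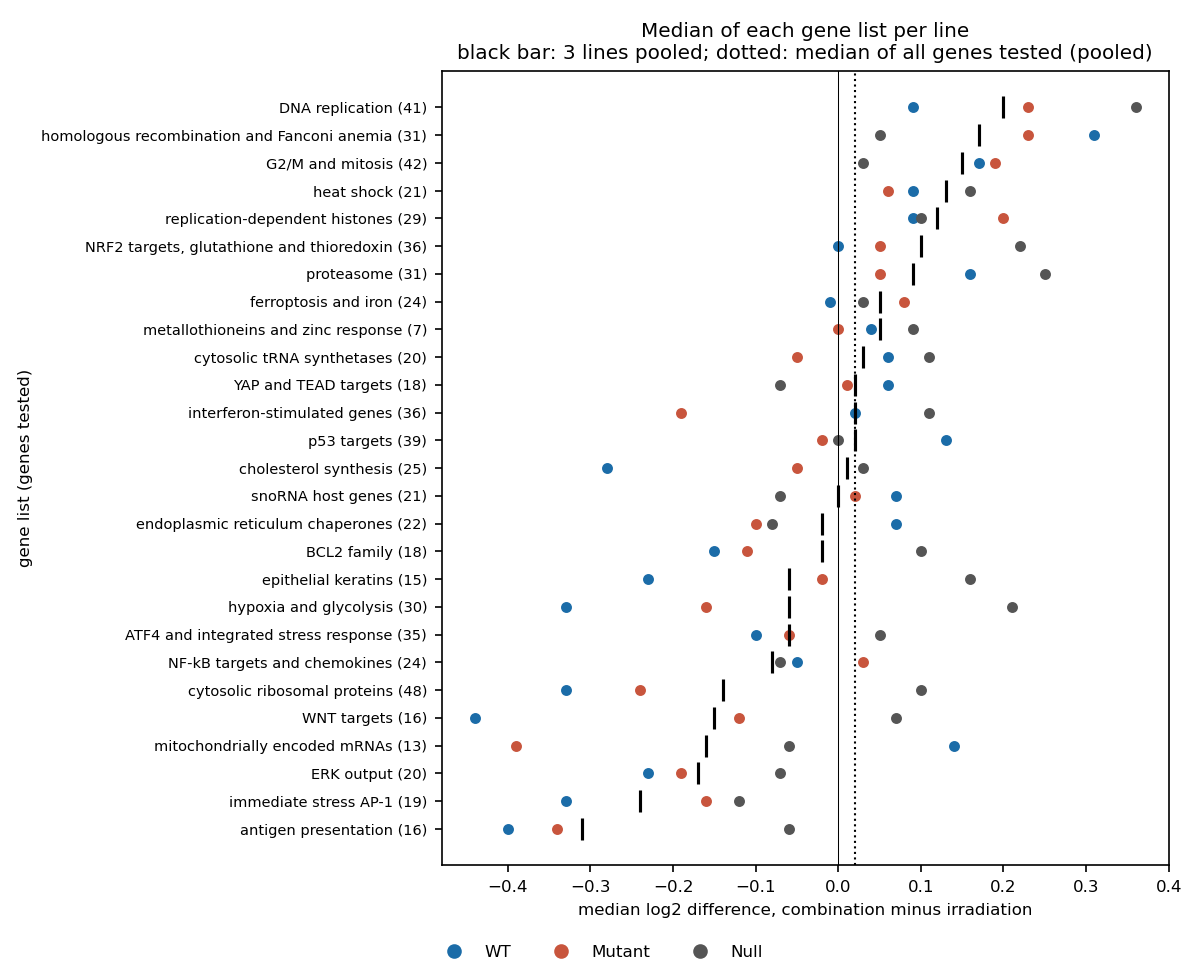
Median log2 difference of each gene list (number tested in brackets) in WT, Mutant and Null, with the pooled median as a black bar and the median of all genes tested (0.02) as a dotted line. DNA replication has the highest pooled median, 0.20, and antigen presentation the lowest, -0.31; for ribosomal protein genes Null lies on the other side of 0 from WT and Mutant.

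By its median the p53 target list did not lean in either direction. Of 39 tested, 21 were above 0 with a median of 0.02, and it was 0.13 in WT, -0.02 in Mutant and 0.00 in Null. Members were called higher in 0, 4 and 0 cases, against 0.102%, 7.80% and 2.66% of all genes. They were called lower in 1, 7 and 3, against 0.474%, 8.70% and 3.37% of all genes. CDKN1A (chromosome 6, 36676460 to 36687339), the p21 inhibitor of cyclin-dependent kinases, already stood at 2250 and 2160 CPM in irradiated WT cells and at 2040 and 1930 with the drug. Mutant had 182 and 183 against 151 and 133, and Null 281 and 302 against 287 and 294 (pooled -0.28 ± 0.13, adjusted p = 0.269 with the block). MDM2, the ubiquitin ligase that limits p53, was 96.0 and 35.2 CPM against 162 and 173 in WT and 42.3 and 17.4 against 38.3 and 11.2 in Null (pooled 0.43 ± 0.22, adjusted p = 0.307, and -0.06 with the block and the slope). TRIAP1, a small p53-induced survival protein, was 0.47 ± 0.12 and higher in 6 of 6 pairs (adjusted p = 0.0764 with the block). BBC3 and PMAIP1, the death effectors PUMA and NOXA, had opposite signs, -0.35 ± 0.15 and 0.39 ± 0.14, and neither was called (adjusted p = 0.221 and 0.152).

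Genes of the interferon response were measured for 36 members, of which 19 were above 0 (52.8%, against 52.9% of all genes, median 0.02). There were 0, 4 and 1 called higher and 0, 1 and 0 lower. The 4 and 1 were 11.1% and 2.78% of the list, near the 7.80% and 2.66% of all genes. IFIT2, an antiviral RNA-binding protein, had 4.89 and 3.31 CPM against 11.9 and 15.5 in WT, 3.92 and 2.04 against 6.88 and 4.80 in Mutant, and 3.18 and 1.96 against 4.07 and 2.32 in Null. Its 0.83 ± 0.18 just missed the threshold with the block (adjusted p = 0.0548) and passed with both terms (adjusted p = 0.0283). Its neighbour IFIT3 was 0.66 ± 0.18 (adjusted p = 0.0876 with the block and 0.128 with both). The other lists, among them cholesterol synthesis, hypoxia and glycolysis, NF-kB targets, WNT targets, the BCL2 family, keratins, tRNA synthetases, ferroptosis and iron genes, histones, snoRNA host genes and mitochondrially encoded mRNAs, had no member called with the block. Their medians ran from -0.16 for the mitochondrial mRNAs to 0.12 for the histones. In the YAP and TEAD list 1 was, ARHGEF17, an exchange factor of small GTPases (-0.45 ± 0.09, adjusted p = 0.0409).

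The 35 genes of the ATF4 stress list had a median of -0.06 on top of irradiation, with 0, 4 and 1 members called higher and 0, 5 and 2 lower. The 4 and 1 were 11.4% and 2.86% of the list, near the 7.80% and 2.66% of all genes. Called lower in the same 2 fits were 8.70% and 3.37% of all genes. For APR-246 against solvent, measured in 12 other libraries, 33 of the 35 were below 0 with a median of -1.26, against 0.00 over all genes, and limma with the replicate block called 25 of them lower (3.42% of all genes were) and 0 higher. In the test of the difference between both effects 32 were above 0 with a median of 1.20, and with the block 23 were called higher (2.79% of all genes were) and 0 lower. Without the block no member passed in either (smallest adjusted p = 0.0804 and 0.0667), with 30 and 25 members at an unadjusted p below 0.05. The pairing that the block assumes was checked only in the irradiation and combination groups, not in solvent or APR-246 alone. The GC slope was higher in replicate 2 in every group but Null with APR-246 alone, where it was 0.14 and -0.08. The list was chosen with results of these data known, so its counts are no independent support. CHAC1, which degrades glutathione and is a marker of ATF4 activity, was -0.23 ± 0.15 on top of irradiation (adjusted p = 0.414 with the block, and 0.06 as the log2 difference with block and slope). For the drug alone it was -2.61 (adjusted p = 0.0102 with the block and 0.0804 without). DDIT4, a stress inhibitor of mTORC1, went from 61.4 and 64.9 CPM to 53.4 and 67.5 in WT, from 44.4 and 34.9 to 43.5 and 28.9 in Mutant, and from 67.8 and 48.7 to 54.6 and 37.5 in Null. That was -0.29 ± 0.11 on top of irradiation, against -2.59 for the drug alone. The test of the difference gave 2.32 (adjusted p = 0.0667, and 0.00928 with the block). ATF3, a stress transcription factor, was 0.02 ± 0.09 on top and -1.61 alone (difference 1.65, adjusted p = 0.0667, and 0.00928 with the block). DDIT3, the death-linked factor CHOP, was -0.08 and -2.52 (difference 2.45, adjusted p = 0.154, and 0.014 with the block). SLC7A11 was 0.67 and -1.52 (difference 2.21, adjusted p = 0.273, and 0.0117 with the block). ATF4 mRNA was 0.07 and -0.90.

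**Figure D5:**
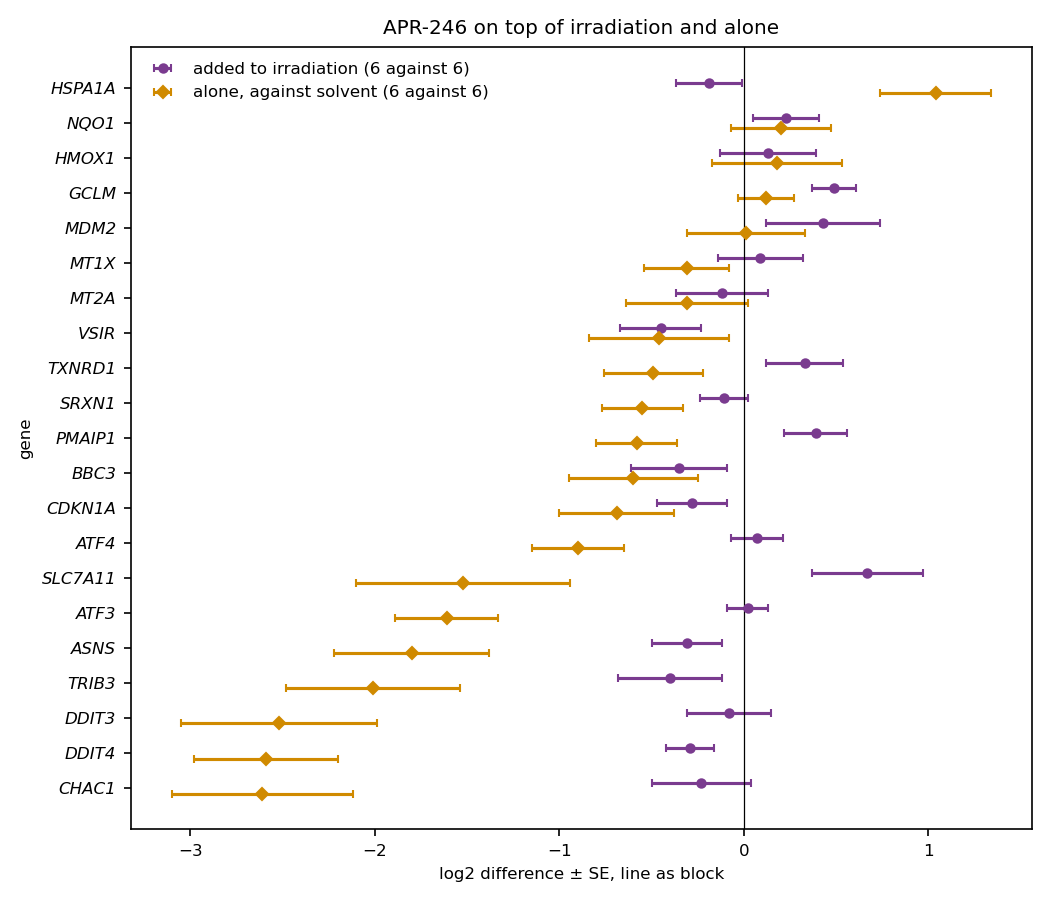
Pooled log2 difference with its SE for 21 genes of the drug's known targets, APR-246 added to irradiation (circles) and APR-246 against solvent (diamonds), each 6 against 6 libraries with line as block. From CHAC1 (-0.23 and -2.61) to ATF4 (0.07 and -0.90) the diamonds lie below the circles, and HSPA1A has them in the opposite order (-0.19 and 1.04).

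Over all genes, the difference between the drug's effect on top of irradiation and alone was called for 1 of 20668 genes (0.00484%) without a block. It is the unnamed long noncoding RNA ENSG00000231977, at 1.42 (adjusted p = 0.0314). edgeR called 0, and 2319 genes had an unadjusted p below 0.05 by limma. With the replicate block 1097 genes were called (5.31%). For the drug alone, 0 of 19223 genes were called without a block and 1350 (7.02%) with it. Both counts with the block assume a pairing that was not checked in the solvent and APR-246 groups. Null with APR-246 alone ran against the other groups by GC slope, at 0.14 in replicate 1 and -0.08 in replicate 2. Of the 113 genes called on top of irradiation, 68 had the same sign for the drug alone and 19 were called there with the block. ZBED2 was among those 19, at 0.85 alone (adjusted p = 0.0289), as was FOSB at -1.05 (adjusted p = 0.0423). FGFR3 went the other way, at -0.53 on top and 0.79 alone (difference -1.31, adjusted p = 0.0667, and 0.0049 with the block). TPPP, a tubulin-binding protein, was -0.67 and 0.54 (difference -1.19, adjusted p = 0.0667, and 0.00928 with the block), and BORCS7 was 0.73 and -0.65 (difference 1.40, adjusted p = 0.0737, and 0.00928 with the block). BMP6, a BMP ligand, was -0.66 on top and 0.96 alone (difference -1.61, adjusted p = 0.0603, and 0.00928 with the block).

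Line by line, the same contrast called 0 genes in WT, 0 in Mutant and 0 in Null without a block. With the replicate block it called 2235 in WT (11.4%), 891 higher and 1344 lower, and 0 in Mutant and Null. Under the GC slope the counts were 301 in WT (1.53%), 2 in Mutant (0.0102%) and 0 in Null, and with both terms 0 in each. The 2 in Mutant were BHLHE40 (-0.79, adjusted p = 0.0393) and AHNAK2, a large scaffold protein (-1.06, adjusted p = 0.0025). These counts do not show that the lines differ. The test of the difference itself called 0 genes with the block, with the slope, with both and with neither (smallest adjusted p without them 0.984, 223 genes at an unadjusted p below 0.05, 0 by edgeR). None of the 113 pooled genes had an unadjusted p below 0.05 in it. They were selected for a difference shared by the lines in these same libraries, so this does not show that the lines respond alike. The median SE was 0.29 for 1 line and 0.16 for the pooled difference.

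Libraries held 53184139 to 58058729 reads. Markers of colon epithelium summed to 8160 to 18200 CPM in the irradiated and 6400 to 16600 CPM in the combination libraries, with KRT8, KRT19 and KRT18 the highest and CDX1 at no more than 0.108 CPM. Blood cell markers summed to 2.07 to 4.54 CPM and 2.99 to 4.21 CPM, and fibroblast and endothelial markers to 31.1 to 75.9 CPM and 24.4 to 50.3 CPM, most of it COL1A1 (19.3 to 67.9 CPM). No member of the 3 marker lists was called with the block. Their part in the results was not tested.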

How the data were processed

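Bulk mRNA from 24 libraries was deposited by the authors as 1 file of CPM values each. The submitters' processing notes name STAR, Subread's featureCounts and FastQC with the build GRCh38.p13; versions, annotation release and counting strand are not given in the sources used here. The deposited CPM are relative to all reads assigned to genes, and dividing by the smallest step gave whole reads for 100% of values (within 0.05 of a read). Even counts made up 74.5 to 81.5% of values of 2 to 9 reads, so both mates seem to have been counted. A floor of 3 reads is 0.0517 to 0.0564 CPM, which covers counting error only.

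Of 60675 gene ids 58444 were in GENCODE 29, which gave coordinates and GC content (98.5% of tested genes). Genes passed filterByExpr (count minimum 10) in the 12 libraries, 19613 in all. The main test was limma-trend with robust variance (limma 3.58.1, edgeR 4.0.16, R 4.3.3) on the log2 of CPM, TMM-scaled and raised by 0.5, with line as block and 8 residual degrees of freedom. On this scale changes of weakly expressed genes are understated. Lines, the difference between them and the drug alone were fitted likewise, and calls were made at a Benjamini-Hochberg adjusted p of 0.05. edgeR and DESeq2 1.42.0 on the recovered reads, other filters, pseudocounts and scalings, left-out libraries and lines, the replicate block and the GC slope per library (over genes with a mean log2 of at least 2) were alternatives. The fits were tested on simulated data.

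The labels number replicates 1 and 2 in every group. The deviations of same-numbered libraries from their group means correlated at 0.60 to 0.94 in all 15 pairs of groups, above the limit of 0.1, so the numbers were taken to pair the samples. The 2 libraries of a group differed far beyond sampling noise (chi-square per degree of freedom 27.7 to 270), so all were counted as separate libraries. That spread cannot tell separate cultures from separate preparations of 1 culture.

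Members and the 30 gene lists were chosen with earlier results of these data known. The rule for named genes took the 15 largest called changes each way of genes with a mean log2 of at least 0 and 1 sign in the lines. Where under 5 were called, as here, it took the 10 smallest unadjusted p each way with 1 sign in the lines as uncalled values. It added up to 4 called list members or 2 uncalled ones, the drug's known targets, and the leading genes of both difference tests. As the replicate block was found to apply, the rule was also run on that fit. PTPRS, KLF15, NOTCH3, WNT11, PERP, AHNAK2, PCNA, GINS3, TYMS, JUNB, HSPA5 and the clock genes were named after their values were seen. Some results are not reported here.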

Additional observations from a re-analysis of the deposited data

How the results depend on the processing

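Of 42 genes called with the block and followed through its alternatives, none changed sign in any of the 1049 values recomputed. They were selected for differences large against their SE, so a stable sign follows largely from that choice. Without the block, 76 genes, these 42 among them, and 9 differences were followed, none of them called. Of their 2517 values 46 changed sign, among them values of CHAC1, MDM2, DDIT3 and ATF3. The median changed sign with the GC slope in 6 of the 27 lists other than cell markers and with block and slope in 8, for example from -0.06 to 0.28 and 0.17 for keratins and to 0.09 for hypoxia and glycolysis. The count of genes called in the pooled test, 0, was 113 with the replicate block, 3237 with the GC slope (of which 3212 had the same sign in the lines within that fit), 1181 with both (1157 with the same sign), 325 by DESeq2 (all 325 with the same sign) and 156 without replicate 2 of every group. It stayed at 0 with the other pseudocounts, scalings and filters, without each single library, without replicate 1 and by edgeR. By the per-line differences fitted without block or slope, only 1688 of the 3237 and 635 of the 1181 had the same sign in the lines. The count of 113 with the block was 0 without a filter on low reads and 219 with a mean CPM of at least 1. With no scaling beyond CPM it was 81, and 21 of the 42 genes followed lost their call there. It was 0 with the block set within each line, 1354 by DESeq2 and 116 by edgeR. It was 0 without the WT or the Mutant line and 2674 without the Null line, and 0 to 2990 when 1 library was left out. In WT, 0 became 2235 with the block, 2703 with the block set within the line, 301 with the slope and 3 by DESeq2, and 0 to 19 with 1 library left out (19 without the first irradiation library). In Mutant it was 2 with the slope, and in Null 1 without a filter. The difference between lines gave 0 to 5 (5 without the first WT irradiation library). The difference between the drug's effect on top of irradiation and alone, 1, was 1097 with the block, 3188 with the slope, 2829 with both, 0 by edgeR, 487 by DESeq2 and 0 to 539 with 1 library left out (539 without the first WT APR-246 library). For the drug alone 0 became 1350, 4943 and 5145. The cause of these moves was not tested. With 1 library a group left, that library is assumed to vary like the others. The depth limits only genes near the floor; the spread between 2 libraries a group sets the precision elsewhere.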

Other observations

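A set of 19 circadian clock genes was read together after PER1 and DBP had been seen among the lower genes, so their choice is not independent of the result. Of the 19, 12 were below 0 and 7 above, with a median of -0.25, and 9 were lower and 1 higher in 6 of 6 pairs. With the replicate block 3 were called lower and 0 higher, and with the block and the GC slope 8 and 0. Over all genes 0.474% and 3.37% were called lower in these fits. NR1D1, a nuclear receptor that represses BMAL1, went from 118 and 149 CPM to 89.1 and 84.5 in WT, from 234 and 226 to 178 and 180 in Mutant, and from 232 and 270 to 202 and 185 in Null (-0.55 ± 0.13, adjusted p = 0.0727 with the replicate block). CRY2, which represses CLOCK and BMAL1, was -0.44 ± 0.10 (adjusted p = 0.0597) and lower in 6 of 6 pairs, and its partner CRY1 was 0.02 ± 0.14. PER2 was -0.32 ± 0.10 and PER3 0.03 ± 0.13. TEF, of the same family as DBP, was -0.34 ± 0.10, and NPAS2, a relative of CLOCK, -0.28 ± 0.10. Others had differences near or above 0. NR1D2, the paralog of NR1D1, was 0.25 ± 0.19, at 31.5 and 12.4 CPM against 44 and 36.9 in WT, 23.4 and 14.4 against 43 and 18.2 in Mutant, and 32.9 and 13.5 against 29.8 and 6.93 in Null. NFIL3, a repressor that competes with DBP, was 0.11 ± 0.10 and higher in 4 of 6 pairs, and HLF, of the DBP family, -0.02 ± 0.26, with 0.33 in WT, 0.47 in Mutant and -0.85 in Null. None of these 10 passed the test with the block, and CRY2, NR1D1, PER2 and TEF did with the block and the GC slope together (adjusted p = 0.00882, 0.0257, 0.0153 and 0.0452).

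VSIR, an immune checkpoint protein, was lower in 6 of 6 pairs at -0.45 ± 0.11 (adjusted p = 0.0709 with the block, 0.0258 with the slope added).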
